A study of Mus musculus with 12 samples.

Results

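A set of 10 genes that serve T cells and natural killer (NK) cells were followed in the anterior prostate of mice with and without the APT121 transgene. The genes were Cd3d, Cd3e, Cd3g, Cd4, Cd8a, Lck, Il2rb, Gzmb, Nkg7 and Ikzf1, chosen by name with earlier results of this genotype comparison known. Of these 10 listed genes, 9 had a probe set that names them alone, 1 each, among the 19935 genes measured, and Lck is not analysed here. The question was whether Cd3g and Ikzf1 are higher together with the other T cell genes. Since that comparison chose the genes, their differences between genotypes are given as a description, with no test.

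The APT121 group was 8 male mice in 4 pools, labelled as bearing PIN lesions (prostatic intraepithelial neoplasia, a precursor of prostate cancer). The transgene encodes T121, a fragment of the SV40 large T antigen that inactivates the pRb family of cell cycle inhibitors, driven in prostate epithelium by a probasin promoter. The wild type group was 16 male mice in 8 pools, labelled normal. Each array (Affymetrix Mouse Gene 1.0 ST) read the RNA of 1 pool of 2 mice, so an error below is a spread between pools. All 24 mice were F3 animals of mixed C57BL/6J and DBA/2 descent, ate the AIN93G purified diet from 3 weeks of age and were killed at 12 weeks, and the whole anterior lobe was frozen. In RNA of whole tissue, more cells of a type and more RNA per cell cannot be told apart.

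T cells recognise antigen through a receptor whose signal is carried into the cell by the CD3 gamma, delta, epsilon and zeta chains, which assemble together before the receptor reaches the surface. CD4 or CD8 serves as coreceptor, and the kinase Lck starts the signal. NK cells and cytotoxic T cells kill through granules that hold granzymes, and both depend on cytokines that act through the interleukin-2 receptor beta chain. Ikaros, the product of Ikzf1, is a zinc finger transcription factor needed for lymphocyte development, and myeloid cells also express it.

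Values are log2 of the normalised intensities. Some arrays stood apart in ways that touch the comparison. Luminal epithelial markers were strong in every array, and the summed intensity of the 8 measured ones ran from 17873 to 18693 in APT121 and from 17394 to 19425 in wild type. Seminal vesicle transcripts summed to 93.6 to 188.1 in 7 wild type arrays but to 15865 in wild type 6, and to 1557, 17965, 11211 and 14156 in APT121 arrays 1 to 4. Adipose transcripts were highest in wild type 7 and wild type 5, at 827.0 and 627.4, beside 335.3 to 359.8 in APT121. The seminal vesicle genes that rose were Svs2, by 6.17, Pate4, by 5.43, and Svs5, by 5.10, 3 of 7 with 0 falling, and of 7 adipose genes 6 fell, led by Fabp4 (-1.41) and Adipoq (-0.88), and Pparg rose by 0.78. Of the luminal genes 4 rose, among them Krt19 by 1.31, and 3 fell, among them Pbsn by 3.27 and Tmprss2 by 1.85. The overlapping luminal sums join these rises and falls and do not measure epithelial content. Of the 16 general leukocyte genes, 8 rose and 0 fell in APT121, beside 22.8% and 30.0% of all genes. Their summed intensities overlapped, though 5 of the 16 had APT121 arrays all above wild type, and Lcp1, the most intense, gave -0.13. The 20 myeloid genes summed to 1685 to 3115 in APT121 and 1043 to 1256 in wild type, with no overlap, Ctss being the most intense.

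The arrays divided the 9 genes into a set whose APT121 values lay above every wild type value and a set whose groups overlapped. Ikzf1, Cd3g, Il2rb, Nkg7 and Gzmb made up the first set of 5. Cd3e, Cd4, Cd8a and Cd3d made up the second set of 4. Across all genes, 17.7% had APT121 arrays all above wild type, 16.9% had them all below and 34.6% had no overlap in either direction. In the limma fit across all genes, 6 of the 9 genes were past an adjusted p of 0.05 in the higher direction and 0 in the lower, beside 22.8% and 30.0% of all genes (52.8% in either direction). Nothing is read from these counts, since the contrast was used in choosing the genes.

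**Figure D1:**
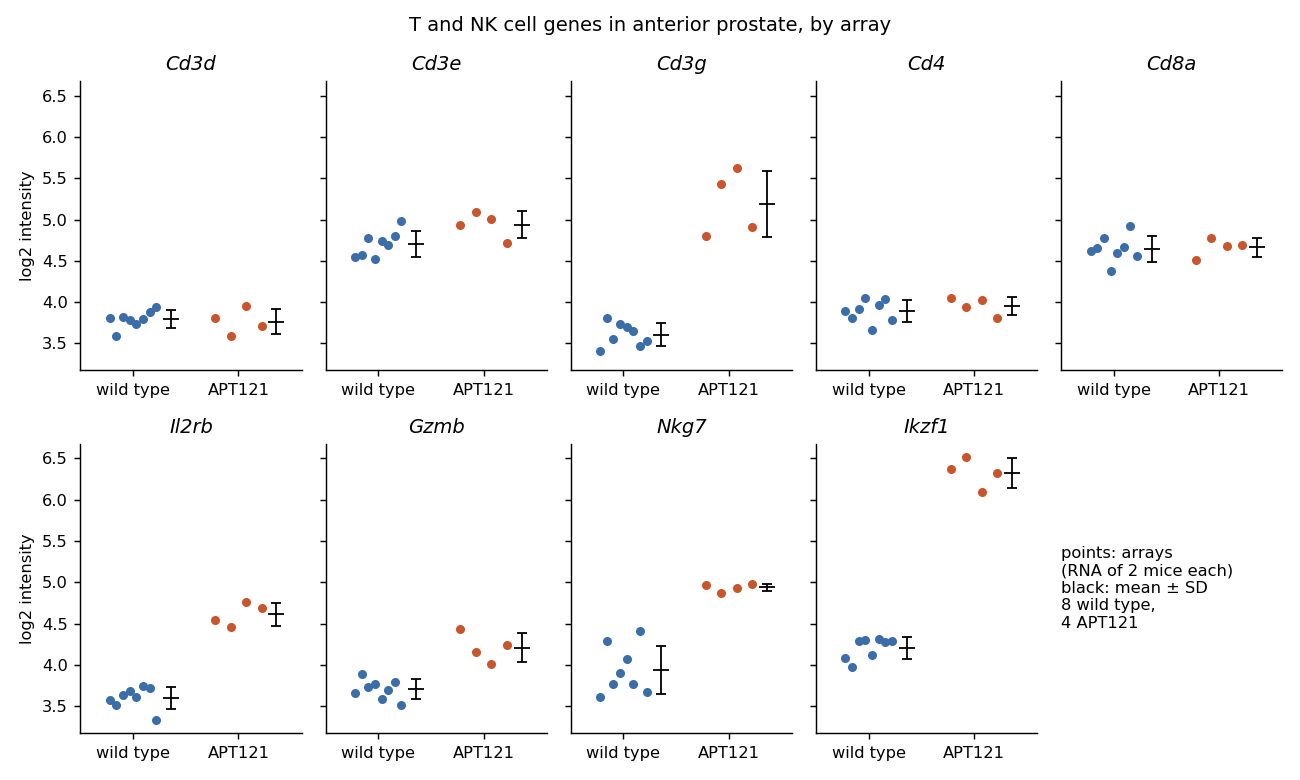
Log2 intensity of the 9 measured T and NK cell genes in each array. Points are arrays (blue, 8 wild type; red, 4 APT121) and black bars are the mean ± SD. Ikzf1, Cd3g, Il2rb, Nkg7 and Gzmb have every APT121 point above every wild type point, and Cd3d, Cd3e, Cd4 and Cd8a do not.

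The 3 CD3 genes lie next to each other on chromosome 9 and gave 3 different pictures. Cd3g, which encodes the gamma chain, read 4.80, 5.43, 5.63 and 4.91 in APT121 arrays 1 to 4 and from 3.41 to 3.81 in wild type, with a median of 3.60. The lowest APT121 array was 1.00 above the highest wild type array, and arrays 2 and 3 were higher than arrays 1 and 4. The means were 5.19 ± 0.40 (SD, n = 4) and 3.61 ± 0.14 (SD, n = 8), a difference of 1.59 ± 0.13 (SE). The wild type mean lay within the range of olfactory receptor genes, which mark the low end of the arrays, as did those of Il2rb, Nkg7 and Gzmb, so for these 4 genes the difference in intensity may understate the difference in transcript and no fold is given.

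Cd3d, which encodes the delta chain, read 3.81, 3.59, 3.96 and 3.71 in APT121 and from 3.58 to 3.94 in wild type, with a median of 3.80. The groups covered nearly the same range, and no APT121 array stood apart from wild type except array 3, just above the highest. The difference was -0.03 ± 0.08 (SE), with a 95% interval from -0.20 to 0.14, and its sign was not stable, from -0.09 to 0.08 over the alternatives (0.08 with arrays centred on olfactory receptor genes and with quantile normalisation repeated).

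Cd3e, which encodes the epsilon chain, read 4.94, 5.10, 5.00 and 4.72 in APT121 and from 4.52 to 4.98 in wild type, with a median of 4.72. Arrays 2 and 3 were above all wild type arrays and array 4 was near the wild type median. The difference was 0.24 ± 0.09 (SE), with a 95% interval from 0.04 to 0.43. It was past the threshold in the fit of all arrays and no longer so in 12 of 24 alternatives, among them that without wild type 5, 6 and 7 (a difference of 0.26) and that against wild type 5 to 8 alone (0.13). Cd247, which encodes the zeta chain and was not among the 10 genes, gave a mean of 4.16 ± 0.08 (SD, n = 4) in APT121 and 4.16 ± 0.16 (SD, n = 8) in wild type, and was not past the threshold.

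The bases before the start sites of the CD3 genes and of Ikzf1 are shown because the genes differ in value while Cd3g and Cd3d start head to head from neighbouring promoters. Each is the 250 bases upstream of a RefSeq start on GRCm38.p6, written 5′ to 3′ on the gene's strand, and capitals mark ETS core matches (CCGGAA or AGGAAG on either strand). The windows are chr9:44980432-44980681 (minus strand) for Cd3g, chr9:44981536-44981785 (plus) for Cd3d and chr9:45009612-45009861 (minus) for Cd3e. Ikzf1 has windows at chr11:11685675-11685924 and chr11:11689927-11690176 (both plus).
Cd3g: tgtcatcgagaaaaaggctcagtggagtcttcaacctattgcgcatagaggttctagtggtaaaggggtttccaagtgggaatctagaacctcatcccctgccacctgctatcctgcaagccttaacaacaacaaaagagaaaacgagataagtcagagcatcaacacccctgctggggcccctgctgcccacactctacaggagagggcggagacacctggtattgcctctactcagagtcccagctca
Cd3d: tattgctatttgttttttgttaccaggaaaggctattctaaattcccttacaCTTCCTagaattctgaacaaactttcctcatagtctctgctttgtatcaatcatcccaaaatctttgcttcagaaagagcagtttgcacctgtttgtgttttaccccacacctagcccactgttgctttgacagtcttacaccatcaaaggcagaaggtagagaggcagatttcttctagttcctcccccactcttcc
Cd3e: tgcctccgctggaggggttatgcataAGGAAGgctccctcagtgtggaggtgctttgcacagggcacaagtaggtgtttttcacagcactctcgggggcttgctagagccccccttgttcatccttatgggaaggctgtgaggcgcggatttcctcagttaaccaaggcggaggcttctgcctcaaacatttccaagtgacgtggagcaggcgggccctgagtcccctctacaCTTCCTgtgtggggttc
Ikzf1, upstream start: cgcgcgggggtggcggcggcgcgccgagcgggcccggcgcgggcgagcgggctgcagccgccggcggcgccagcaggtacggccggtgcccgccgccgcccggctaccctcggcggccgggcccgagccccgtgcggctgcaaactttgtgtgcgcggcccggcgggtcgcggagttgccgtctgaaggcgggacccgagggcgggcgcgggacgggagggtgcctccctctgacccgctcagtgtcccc
Ikzf1, downstream start: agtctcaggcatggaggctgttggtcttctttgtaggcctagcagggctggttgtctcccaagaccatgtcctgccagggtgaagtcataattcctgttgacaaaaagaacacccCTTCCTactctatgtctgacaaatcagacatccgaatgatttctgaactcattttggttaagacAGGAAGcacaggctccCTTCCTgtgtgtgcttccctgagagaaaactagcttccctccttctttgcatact

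Cd3g had 0 ETS matches in its window, Cd3d had 1 and Cd3e had 2. The upstream Ikzf1 window had 0 and the downstream one had 3. Of all 32851 RefSeq promoter windows of this length, 38.2% held an ETS match. None of these 5 windows held the RUNX letters TGTGGT or TGCGGT (18.6% of all windows) or the E2F letters TTTCCCGC, TTTGGCGC, TTTCGCGC or TTTGCCGC (1.86% of all windows), searched on both strands. The upstream Ikzf1 window stood out in composition, with 44 CpG dinucleotides and 82.0% G and C, where the median window had 6 and 52.4%. Cd3g had 4 CpG, Cd3d 0, Cd3e 7 and the downstream Ikzf1 window 1. These matches describe letters in a window and not binding.

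The coreceptor genes did not separate the genotypes. Cd4, the coreceptor of helper T cells and also present on some myeloid cells, read 4.05, 3.94, 4.03 and 3.80 in APT121 and from 3.67 to 4.05 in wild type, with a median of 3.91. Its difference was 0.06 ± 0.08 (SE), with a 95% interval from -0.11 to 0.23. Cd8a, the alpha chain of the cytotoxic coreceptor, read 4.51, 4.78, 4.68 and 4.69 in APT121 and from 4.37 to 4.92 in wild type, with a median of 4.63. The APT121 arrays sat inside the wild type range for Cd8a, and the difference was 0.02 ± 0.09 (SE), with a 95% interval from -0.17 to 0.21; it was -0.03 with each array centred on its median. Its partner Cd8b1 gave a difference of -0.20 ± 0.10 (SE) that was not past the threshold (limma, adjusted p = 0.0927).

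Il2rb, the beta chain shared by the interleukin-2 and interleukin-15 receptors, read 4.54, 4.46, 4.76 and 4.69 in APT121 and from 3.34 to 3.74 in wild type, with a median of 3.62. All 4 APT121 arrays were above all 8 wild type arrays. The means were 4.61 ± 0.14 (SD, n = 4) and 3.60 ± 0.13 (SD, n = 8), a difference of 1.01 ± 0.08 (SE).

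Nkg7, a membrane protein of cytotoxic granules, read 4.96, 4.87, 4.93 and 4.98 in APT121 and from 3.61 to 4.41 in wild type, with a median of 3.83. The APT121 arrays lay close together, with an SD of 0.05 (n = 4), while the wild type arrays were spread, with an SD of 0.29 (n = 8), wild type 7 and wild type 2 being the highest. The difference was 1.00 ± 0.13 (SE). Gzmb, the granule protease granzyme B, read 4.44, 4.15, 4.01 and 4.24 in APT121 and from 3.51 to 3.89 in wild type, with a median of 3.72. The groups were apart by 0.13, the narrowest gap of the 5 separated genes, and the difference was 0.50 ± 0.08 (SE).

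Ikzf1 had the largest difference of the 9 genes. It read 6.37, 6.52, 6.09 and 6.32 in APT121 and from 3.97 to 4.31 in wild type, with a median of 4.28. The lowest APT121 array was 1.78 above the highest wild type array. The means were 6.33 ± 0.18 (SD, n = 4) and 4.21 ± 0.13 (SD, n = 8), a difference of 2.12 ± 0.09 (SE). The wild type mean was just above the 95th percentile of olfactory receptor genes (4.14), and wild type 1, 2 and 5 were below it. The difference in intensity may therefore understate the difference in transcript, and no fold is given. Ordered from the largest rise, Ikzf1 was at place 337 of the 19935 genes, Cd3g at 582, Il2rb at 1138, Nkg7 at 1146 and Gzmb at 2637.

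Seminal vesicle sums were higher in every APT121 array than in any wild type array but wild type 6. Adipose sums were lower in every APT121 array than in every wild type array. The part of these tissues in the differences cannot be told apart from that of genotype. Wild type 6 had a seminal vesicle sum within the range of APT121 arrays 2 to 4. It read 3.65 for Cd3g, 4.31 for Ikzf1, 3.74 for Il2rb, 3.76 for Nkg7 and 3.70 for Gzmb, all below every APT121 array. A like sum does not make it a matched array, since single seminal vesicle genes differed. The highest wild type value was above every APT121 array for Svs1 (6.96 against at most 4.17), Svs3a (6.45 against 2.89), Svs6 (5.86 against 3.26) and Svs4 (9.95 against 8.27). Without wild type 5, 6 and 7 the difference was 1.59 for Cd3g and 2.14 for Ikzf1. That setting leaves out the only wild type array with high seminal vesicle transcripts, so it does not bear on them. The summed myeloid intensities separated the genotypes as the 5 genes did, but Ctss, the most intense myeloid gene, weighs most in that sum. Singly, 9 of the 20 myeloid genes had APT121 arrays all above wild type, beside 17.7% of all genes. The part of myeloid transcripts in the result was not tested.

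Olfactory receptor genes gave a picture of what these arrays read where little transcript is present in prostate. The levels of 1027 such genes in wild type had a 95th percentile of 4.14 and a median of 2.91. Probe sets differ in response, so this range places a value near or away from the array's floor and does not order genes by expression. In wild type, Cd3e, Cd8a and Ikzf1 had means above that percentile, 3 of 9 genes, and the means of the other 6 lay below it. The APT121 means of 7 of 9 genes were above the APT121 percentile of 3.99, Cd3d and Cd4 being the exceptions. The olfactory receptor genes themselves had a median difference of -0.11, with 0 past the threshold in the higher direction and 164 in the lower, and a largest difference of 0.28.

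**Figure D2:**
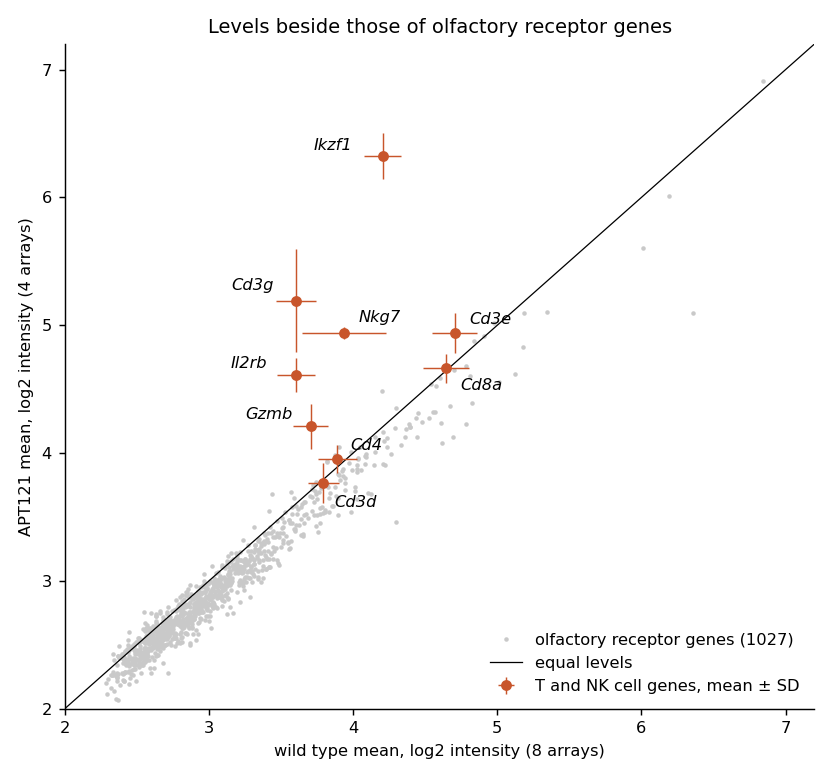
APT121 mean (4 arrays) against wild type mean (8 arrays) in log2 intensity for the 9 genes (red, with bars of ± SD) and for 1027 olfactory receptor genes (grey). The line marks equal levels. Ikzf1, Cd3g, Il2rb, Nkg7 and Gzmb lie above the grey cloud at their wild type level, and Cd3d and Cd4 lie inside it.

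Other genes of the T and NK cell pathways, from lists that hold none of the 9 genes, moved in both directions. Of 97 measured members of 5 lists, 22 rose, 18 fell and 57 did not pass the test, with a median difference of -0.05, beside 4540 genes higher, 5987 lower and a median of -0.09 over all genes. The balance turned with the scaling. With each array centred on its median 18 of these genes were higher and 27 lower, with a median of -0.10. With arrays centred on olfactory receptor genes 29 were higher and 12 lower, with a median of 0.06, and with quantile normalisation repeated 25 were higher and 17 lower, with a median of 0.04. The lists were drawn up with earlier results of these arrays known.

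In the T cell receptor complex and its nearby signalling, 2 of 20 genes rose, 4 fell and 14 did not pass, with a median of -0.01. The falls were led by Sla2, an adaptor that dampens receptor signalling, at -0.52 ± 0.13 (SE; limma, adjusted p = 0.00378), and Lcp2, the adaptor SLP-76, at -0.47 ± 0.14 (SE; adjusted p = 0.00981). Rhoh, a small GTPase of blood cells, fell by 0.43. The call of Lcp2 was lost without APT121 replicate 4 and against wild type 5 to 8 alone, and that of Rhoh against wild type 1 to 4 alone. Zap70, the kinase that binds the phosphorylated CD3 and zeta chains, read 4.06 ± 0.05 (SD, n = 4) in APT121 and 4.05 ± 0.25 (SD, n = 8) in wild type and did not pass.

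Among 20 T cell surface and costimulatory genes, 5 rose, 2 fell and 13 did not pass, with a median of -0.04. Cd7, a surface glycoprotein of T and NK cells, rose by 0.85 ± 0.12 (SE; limma, adjusted p = 3.07e-05), and its 4 APT121 arrays, from 5.19 to 5.54, lay above the wild type range of 4.03 to 4.84. Cxcr6, a chemokine receptor of resident lymphocytes, rose by 0.32. Cd28, the main costimulatory receptor, fell by 0.49 ± 0.08 (SE; adjusted p = 0.000143), with no overlap between the groups.

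Of 26 NK and cytotoxic effector genes, 4 rose, 2 fell and 20 did not pass, with a median of -0.05. Ccl5, a chemokine made by activated T and NK cells and by other cells, rose by 1.11 ± 0.09 (SE; limma, adjusted p = 5.00e-08), and Serpinb9, the granzyme B inhibitor, by 0.85 ± 0.12 (SE; adjusted p = 2.07e-05). Both had APT121 arrays above all wild type arrays. Ctsw, a protease of cytotoxic lymphocytes, rose by 0.32, with overlap, and lost its call without wild type 5, 6 and 7, without APT121 replicate 1 or 3 and against wild type 1 to 4 alone. Prf1, the pore-forming perforin, gave -0.24 ± 0.12 (SE; adjusted p = 0.114) and Gzma, granzyme A, gave -0.19 ± 0.10 (SE; adjusted p = 0.127), neither past the threshold. The medians of these 3 lists were above 0 with olfactory receptor centring, at 0.11, 0.07 and 0.06.

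The Ikaros family did not move as 1 group. Ikzf2, which encodes Helios, rose by 1.16 ± 0.13 (SE; limma, adjusted p = 1.45e-06), from 6.27 ± 0.25 (SD, n = 8) to 7.43 ± 0.23 (SD, n = 4), with no overlap between the groups. Ikzf4, which encodes Eos, rose by 0.34 ± 0.08 (SE; adjusted p = 0.00196). Ikzf3, which encodes Aiolos, fell by 0.77 ± 0.19 (SE; adjusted p = 0.00352), and its wild type arrays ran from 4.22 to 5.71. Ikzf5, which encodes Pegasus, gave 0.07 ± 0.07 (SE; adjusted p = 0.399) and was not past the threshold.

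Over the 16 lymphoid transcription factor genes measured, 5 rose, 7 fell and 4 did not pass, with a median of -0.22. Many of these factors also act in epithelium and other tissues. Runx1 rose by 1.67 ± 0.17 (SE; limma, adjusted p = 4.00e-07), from 5.64 ± 0.31 (SD, n = 8) to 7.31 ± 0.34 (SD, n = 4). Satb1, a chromatin organiser studied in thymocytes, fell by 1.84 ± 0.12 (SE; adjusted p = 3.29e-09). Tox, a factor of T cell development and exhaustion, fell by 1.40 ± 0.18 (SE; limma, adjusted p = 5.34e-06). The wild type arrays divided for Tox, from 7.27 to 7.53 in wild type 1 to 4 and from 6.76 to 7.04 in wild type 5 to 8. Its difference ran from -1.70 to -1.11 over the alternatives.

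In the interleukin-2 and interleukin-15 receptor pathway, to which Il2rb belongs, 6 of 15 genes rose, 3 fell and 6 did not pass, with a median of -0.02 (0.09 with olfactory receptor centring). Il2ra, the alpha chain of the interleukin-2 receptor, gave -0.02 ± 0.09 (SE; limma, adjusted p = 0.851), and Il15, the cytokine that NK cells depend on, fell by 0.48 ± 0.08 (SE; adjusted p = 9.41e-05). Cish, a feedback inhibitor induced by STAT5, rose by 1.12 ± 0.10 (SE; adjusted p = 1.60e-07). Wild type 1 to 4 read 5.36 to 5.59 for Cish and wild type 5 to 8 read 5.07 to 5.35. Socs1, another cytokine signal inhibitor, fell by 0.57 and Stat5a, a transcription factor downstream of the receptor, by 0.55. The shared gamma chain gene is not analysed here.

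**Figure D3:**
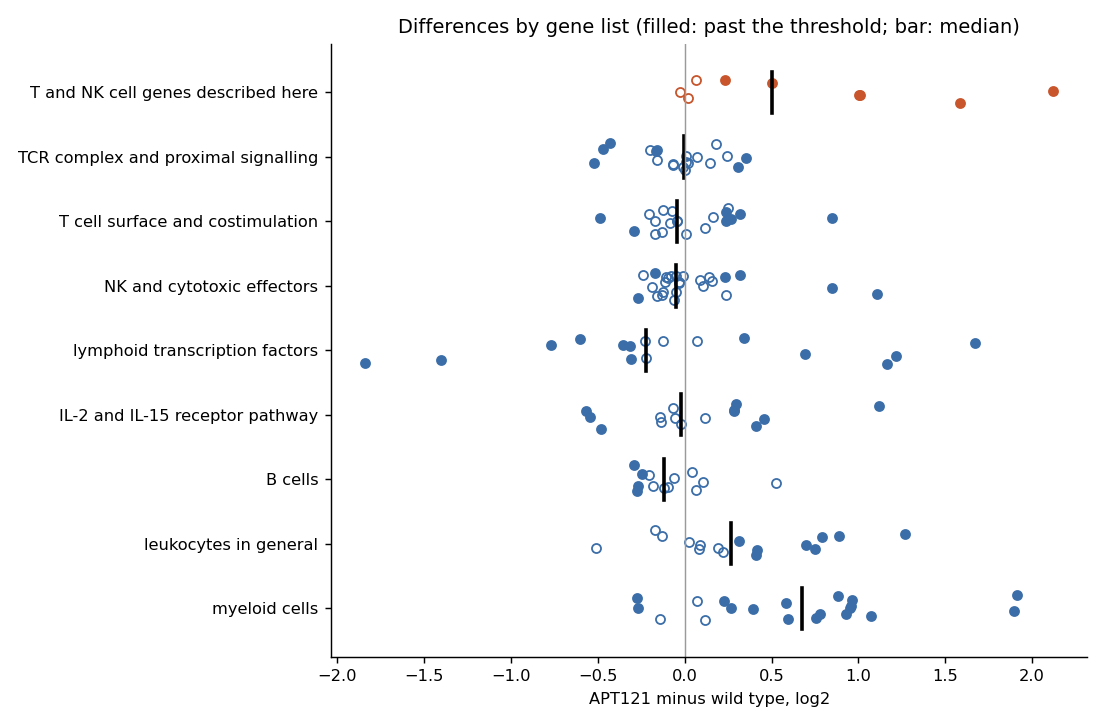
Differences between APT121 and wild type in log2 intensity, 1 point per gene, for the 9 genes (red) and 8 gene lists (blue). Filled points are past an adjusted p of 0.05, and bars are medians. The receptor, surface and effector lists centre near 0, the lymphoid transcription factors spread from -1.84 to 1.67, and the myeloid genes have a median of 0.68.

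Markers of other blood cells were read beside these lists. Of 13 B cell genes, 0 rose, 4 fell and 9 did not pass, with a median of -0.12. The falls were small, led by Ms4a1, which encodes CD20, at -0.29 ± 0.06 (SE; limma, adjusted p = 0.00106), and Cd79a, a chain of the B cell receptor, gave -0.06 and did not pass. The next falls were Blk, a B cell kinase, by 0.28 and Fcrla, an Fc receptor-like protein, by 0.27. With arrays centred on olfactory receptor genes 1 of the 13 B cell genes fell, Blk and Fcrla no longer passing, and Blk lost its call in 11 of 24 alternatives. Of the general leukocyte genes, Laptm5 rose by 1.27, Nckap1l by 0.89, Cd53 by 0.79 and Ptprc, which encodes CD45, by 0.70 ± 0.12 (SE; adjusted p = 0.000102). Among the 20 myeloid genes 15 rose, 2 fell and 3 did not pass, with a median of 0.68. Ctss, the protease cathepsin S, rose by 1.91 ± 0.10 (SE; adjusted p = 1.86e-10), Mpeg1, a macrophage pore protein, by 1.89 ± 0.14 (SE; adjusted p = 8.37e-09) and Fcer1g, an Fc receptor signalling chain also present in NK cells, by 1.07.

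Neighbouring genes on the chromosome were read next, taking for each of the 9 genes the 2 nearest measured protein-coding genes on each side. Outside the 9 genes these were 28 genes, of which 6 rose, 12 fell and 10 did not pass, with a median of -0.19. Over all genes 22.8% were higher and 30.0% lower, with a median of -0.09, and nothing is read from the counts of neighbours. Atp5l is counted among the falls, though the place of its probe set is uncertain. The CD3 genes lie in the order Cd3g, Cd3d, Cd3e, followed by Mpzl2 and Mpzl3. Mpzl2, an adhesion protein of epithelia and thymus, rose by 3.94 ± 0.15 (SE; limma, adjusted p = 5.06e-12), from 5.72 ± 0.30 (SD, n = 8) to 9.66 ± 0.24 (SD, n = 4). Mpzl3, its relative, rose by 0.72 ± 0.07 (SE; adjusted p = 5.44e-07). On the other side Ube4a, a ubiquitin ligase, fell by 0.46 ± 0.08 (SE; adjusted p = 9.32e-05) and Atp5l, a subunit of ATP synthase, by 1.25 ± 0.15 (SE; adjusted p = 4.18e-06). The Atp5l value may not belong to this place. Its probe set number falls outside the runs of its neighbours' numbers, so it may read a copy of the gene elsewhere.

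Next to Ikzf1, Fignl1 rose by 3.80 ± 0.13 (SE; limma, adjusted p = 1.95e-12), from 3.84 ± 0.16 (SD, n = 8) to 7.64 ± 0.38 (SD, n = 4). It encodes an ATPase of homologous recombination repair. Beyond it Ddc, the enzyme that makes dopamine, gave -0.31 ± 0.18 (SE; adjusted p = 0.152) and did not pass. On the other side Spata48 fell by 0.20 and 4930512M02Rik by 0.18. Beside Il2rb, C1qtnf6 rose by 0.38 ± 0.11 (SE; adjusted p = 0.00857) and Tmprss6, a hepatic protease, fell by 0.38 ± 0.07 (SE; adjusted p = 0.000428), while Kctd17, at 0.12, and the somatostatin receptor gene Sstr3, at -0.16, did not pass.

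**Figure D4:**
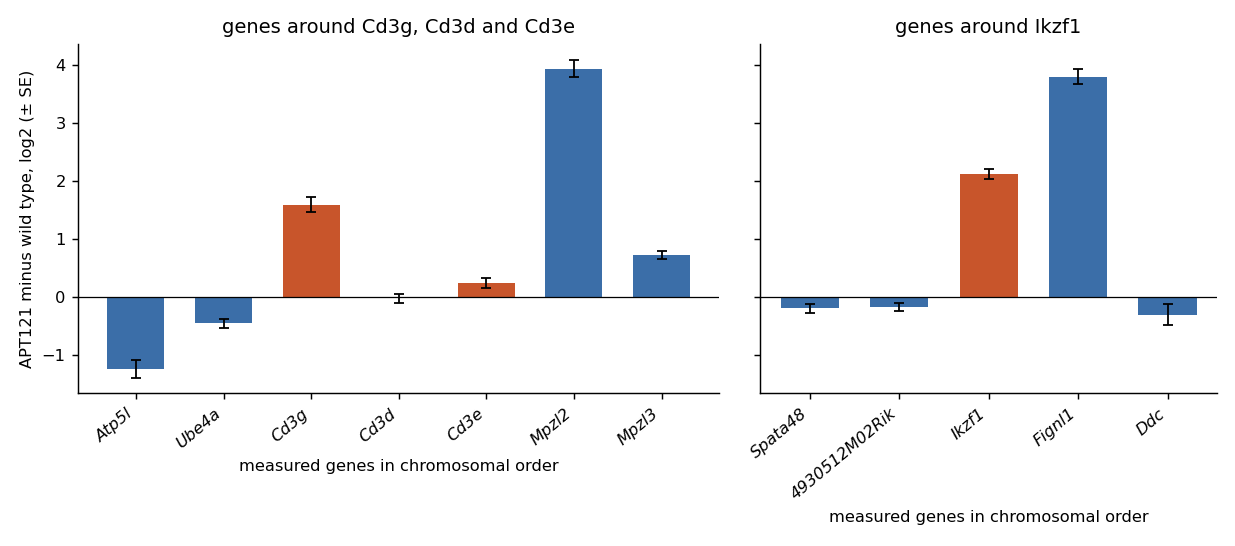
Difference between APT121 and wild type in log2 intensity (bars, with ± SE) for measured genes in chromosomal order around the CD3 genes and around Ikzf1. Red bars are T and NK cell genes and blue bars their neighbours. The place of the Atp5l probe set on the chromosome is uncertain. Mpzl2 and Fignl1, at 3.94 and 3.80, have larger rises than Cd3g and Ikzf1.

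The array-to-array variation within genotypes was used to see which genes follow Cd3g, Ikzf1 and Il2rb once the genotype means are removed. Over the 12 arrays, centred within genotype, Cd3g had r = 0.18 with Cd3e, -0.10 with Cd3d, 0.03 with Cd4, 0.05 with Cd8a, 0.13 with Il2rb, 0.10 with Nkg7, -0.44 with Gzmb and -0.30 with Ikzf1. Ikzf1 had r = 0.37 with Cd3e, -0.03 with Cd3d, 0.28 with Cd4, 0.10 with Cd8a, -0.18 with Il2rb, -0.24 with Nkg7 and 0.09 with Gzmb. The genes most like Cd3g were Esco2, a cohesin acetyltransferase of S phase (r = 0.90), Smad9, a mediator of BMP signals (0.90), and St6galnac2, a sialyltransferase (0.88). Esco2 read 6.08, 6.69, 6.64 and 6.05 in APT121 arrays 1 to 4, with arrays 2 and 3 high as they were for Cd3g. Those most like Ikzf1 were Fastkd3 (0.89), Hao1 (0.89) and Brdt (0.88), and those most like Il2rb were Negr1 (0.93), the probe set annotated Mir26a-1 (0.91) and Tarm1 (0.89). Between genotypes Esco2 rose by 3.21 and St6galnac2 by 0.46, while Smad9 fell by 1.56. The r values of Cd3g rest largely on the 4 APT121 arrays, where its SD was 0.40 against 0.14 in wild type. The genes most like each are the highest of 19935 values each, over arrays that share their genotype groups, and are given as a description.

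Among the 8 wild type arrays, which the genotype comparison does not enter, Cd3g and Ikzf1 were set against each other and against each of the other genes, 15 pairs in all. Of the 15 values of r, 8 were above 0, and they ran from -0.75 to 0.76. Exact permutation tests (two-sided) gave 2 pairs with p under 0.05 and 0 after Benjamini-Hochberg adjustment. Cd3g and Cd3d had r = -0.75 (exact permutation p = 0.0258, adjusted p = 0.194) and rho = -0.81 (p = 0.0218, adjusted p = 0.327), and r = -0.68 without the 2 arrays farthest from the median. Ikzf1 and Cd3d had r = 0.76 (exact permutation p = 0.0231, adjusted p = 0.194) and rho = 0.29 (p = 0.501, adjusted p = 0.939), and r fell to 0.39 without those 2 arrays, so that relation rests on them. In other pairs r rose without the 2 arrays farthest from the second gene's median. It went from 0.29 to 0.92 for Ikzf1 with Il2rb and from 0.35 to 0.84 for Cd3g with Nkg7. Values of r over 8 arrays were thus unstable in both directions. Centred within wild type 1 to 4 and wild type 5 to 8, again 0 pairs passed, with a lowest adjusted p of 0.298. Wild type means of Cd3g and of 5 of the other genes were within the olfactory receptor range, which limits what these correlations can show.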

How the data were processed

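RNA of 12 pools was read on Affymetrix Mouse Gene 1.0 ST arrays. The authors deposited 1 intensity per transcript cluster (a gene's probe set) and array, on a linear scale, made by RMA (background correction, quantile normalisation, summarisation) per the submitters' processing notes; the software version and genome build are not given in these sources. Array medians ran from 32.1 to 33.7. Arrays give no read depth, so their number limits the precision. RMA ties the arrays' distributions together, so a change in total RNA would not be seen.

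Log2 was taken here. Clusters with 1 gene symbol in the platform annotation were kept (21780 of 28815), with the highest-mean cluster per gene, which left 19935 genes. The genotype comparison used limma 3.58.1 under R 4.3.3 (genotype as the only term, 12 arrays, two-sided, Benjamini-Hochberg over all genes, threshold 0.05), tested on simulated data. A SAM-type statistic, named in the design text, was an alternative, as were other scalings, filters, variance models and subsets of arrays. Centring on olfactory receptor genes was added after seeing the data. The genes and the lists were chosen with earlier results of these data known. Besides the 10 genes, the text names up to 3 called genes per list with the largest absolute difference, a set always named (Ikzf2 to Ikzf5, Cd247, Cd8b1, Il2ra, Il15, Zap70, Prf1, Gzma, Ptprc and Cd79a), neighbours of Cd3g, Cd3d, Ikzf1 and Il2rb in the RefSeq gene order, and the 3 genes most like Cd3g, Ikzf1 and Il2rb. Mpzl3, the second neighbour of Cd3e, was added after its values were seen. Promoter windows came from RefSeq (GRCm38.p6), which held 8 of the 10 genes.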

Additional observations from a re-analysis of the deposited data

How the results depend on the processing

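Over the alternatives in which it was tested, the difference of Cd3g ran from 1.44 to 1.72 and that of Ikzf1 from 2.05 to 2.23. The count of T and NK cell genes past the threshold was 5 or 6, Cd3e being the gene that moved, and 0 were lower. Without the lowest 50% of genes none of the 9 genes was tested, and without the lowest 25% Cd3d was not tested. Taking the mean of a gene's clusters could not change the 9 genes, which have 1 cluster each.

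Of all genes, 5987 were lower in the fit as described, 3295 with arrays centred on olfactory receptor genes, 3327 without the lowest 50% of genes and 9662 with the SAM-type statistic. Olfactory receptor centring moved the median difference of all genes by 0.11, and higher calls made up 62.7% of all calls there (5549 genes) against 43.1%. Genes of the 5 T and NK pathway lists numbered 22 higher and 18 lower, 11 and 8 without the lowest 50% of genes (fewer genes tested), and 39 lower with the SAM-type statistic. They numbered 18 higher and 27 lower with each array centred on its median, and 29 and 12 with olfactory receptor centring. The cause of the other shifts was not tested. Leaving out each array in turn gave 4150 to 4523 genes higher and 4829 to 5984 lower, and 18 to 24 and 15 to 18 genes of the lists. Wild type means of 6 of the 9 genes (Cd3d, Cd3g, Cd4, Il2rb, Gzmb and Nkg7) lay within the olfactory receptor range, which limits the size of their differences and their correlations among wild type arrays.

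The labels number replicates in both genotypes, but same-numbered arrays did not deviate together (r from -0.03 to 0.07 over 4 pairs), so the numbers were not taken as pairs. With the replicate number as a block, 4027 genes were higher and 4787 lower, Cd3g was at 1.57 and Ikzf1 at 2.16, and 20 and 14 genes of the lists were higher and lower. Of the list genes named, Ikzf3 and Ctsw lost their call under the block.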
